A study of Mus musculus with 6 samples.

Results

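The 10 genes examined are made by fibroblasts for the extracellular matrix, and they were read in the lungs of lung cancer mice on a high-fat diet (HFD) and on a regular diet (RD). They are the small leucine-rich proteoglycans Dcn, Bgn, Aspn, Lum, Fmod, Prelp and Ogn, and the matrix glycoproteins Abi3bp, Fbln1 and Mfap5. They were chosen by name, 10 of 18193 genes on the array with a probe set that reads no other annotated gene. All probe sets that the platform annotation assigns to exactly 1 of them were taken, 25 of 45037 tested, with 1 probe set for Lum and 6 for Fmod. For each gene the brightest probe set, by mean log2 value over the 6 arrays, was read as the lead. That mean chose the leads, so the brightness of a lead is a description and no result.

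Both groups, LC-HFD (3 mice) and LC-RD (3 mice), were male transgenic mice on a C57BL/6 background. The study's results give an age of 6 weeks at the start, and its methods 6 to 8 weeks. All carried CC10-rtTA and a tet-O mutant human EGFR, so doxycycline turns on the mutant EGFR in cells that use the CC10 promoter. The study describes this system as inducible in adult lung and respiratory epithelium, and the promoter is not active in fibroblasts. Both groups received doxycycline, mixed into the diet (625 ppm) and dissolved in the drinking water (2 mg/ml), and fat supplied 60% of the energy of the HFD. The sample labels describe diet up to 8 weeks and then 7 weeks of doxycycline, whereas the study's methods give 2 weeks of diet and then 8 weeks of doxycycline. Total RNA of whole lung was hybridized to 1 Affymetrix array per mouse, and no mouse without doxycycline or without the EGFR transgene was analysed here. The lung label was borne out by the epithelial markers, with Sftpc, the surfactant protein C gene of alveolar type II cells, at 13.81 on the log2 scale in both groups.

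Small leucine-rich proteoglycans are secreted proteins with a curved core of leucine-rich repeats, and most of them carry chondroitin, dermatan or keratan sulfate chains. They bind collagen fibrils and set their width and spacing, and several also bind growth factors such as TGF-β. Fibulins and microfibril-associated proteins belong to the scaffold on which elastic fibers are laid down. In the lung these proteins are made mainly by fibroblasts in the sheaths of vessels and airways and under the pleura. In whole-lung RNA, fewer cells of a type and less RNA per cell cannot be told apart.

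The promoters of 4 genes are shown because neighboring family members moved in the same direction, Ogn and Aspn downward on chromosome 13 and Prelp and Fmod upward on chromosome 1. The stretches are the 250 bases before the annotated start in RefSeq on GRCm38.p6, each 5′ to 3′ on the strand of its gene. They are Ogn at chr13:49607765-49608014 on the plus strand, Aspn at chr13:49544193-49544442 on the plus strand, Prelp at chr1:133921402-133921651 on the minus strand and Fmod at chr1:134037004-134037253 on the plus strand. Capitals mark matches on either strand to a TATA box (TATAAA), a SMAD box (CAGAC), an AP-1 site (TGANTCA) or a GC box (GGGCGG).
Ogn: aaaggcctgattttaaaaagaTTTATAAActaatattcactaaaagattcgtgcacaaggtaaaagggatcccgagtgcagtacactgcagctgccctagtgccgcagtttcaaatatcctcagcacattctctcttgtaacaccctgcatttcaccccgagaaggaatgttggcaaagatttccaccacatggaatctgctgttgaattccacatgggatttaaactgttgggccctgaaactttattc
Aspn: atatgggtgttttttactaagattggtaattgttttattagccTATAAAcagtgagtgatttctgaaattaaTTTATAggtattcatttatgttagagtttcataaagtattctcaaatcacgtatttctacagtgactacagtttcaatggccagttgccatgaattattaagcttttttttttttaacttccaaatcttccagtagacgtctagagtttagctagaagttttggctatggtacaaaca
Prelp: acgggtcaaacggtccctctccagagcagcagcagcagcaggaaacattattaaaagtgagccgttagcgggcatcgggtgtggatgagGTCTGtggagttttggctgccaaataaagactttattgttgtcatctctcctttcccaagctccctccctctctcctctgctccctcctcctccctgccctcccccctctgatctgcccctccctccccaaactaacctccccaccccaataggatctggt
Fmod: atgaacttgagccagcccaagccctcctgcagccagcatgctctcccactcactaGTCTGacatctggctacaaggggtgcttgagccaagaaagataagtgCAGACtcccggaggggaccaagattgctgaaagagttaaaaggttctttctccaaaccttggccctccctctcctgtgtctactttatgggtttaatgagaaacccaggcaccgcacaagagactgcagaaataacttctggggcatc
Ogn and Aspn each held 2 matches to the TATA box, which overlap on opposite strands in Ogn, and neither held a SMAD box. The TATA box match nearest to the annotated start ended 221 bases before it in Ogn and 172 bases before it in Aspn. Prelp held 1 SMAD box and Fmod held 2, and neither held a TATA box. Of 32851 mouse promoters cut to the same length, 12.4% held the TATA box letters and 42.2% the SMAD box letters. The AP-1 site, found in 6.75% of promoters, and the GC box, found in 32.7%, had no match in the 4 stretches. Bgn and Fbln1, which did not pass, also had entries. Bgn held 3 GC boxes and neither a TATA box nor a SMAD box. Each Fbln1 entry held 2 SMAD boxes and no TATA box, so a SMAD box was not particular to the genes that rose. Dcn, Lum, Abi3bp and Mfap5 had no entry and are named only. A match in these letters is a description of the sequence and was not tested for use by any factor.

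Control probe sets separated the groups before any gene was read. The 18 hybridization control probe sets averaged 11.5 ± 0.0254 on LC-HFD arrays and 10.0 ± 0.0168 on LC-RD arrays (SD, n = 3 each), and 18S rRNA 7.61 ± 0.0693 on LC-HFD arrays and 12.5 ± 0.0164 on LC-RD arrays. The mean 3′ minus 5′ signal of the control genes, a measure of RNA integrity and labeling, was 1.58 to 1.70 on LC-HFD arrays and 1.70 to 1.76 on LC-RD arrays without overlap (exact permutation p = 0.1, two-sided, the smallest that 3 against 3 allows). Diet and array handling therefore cannot be told apart in any comparison that follows. The median log2 value of all probe sets lay between 4.79 and 4.84 on every array. The table holds no detection calls, so whether a probe set near or below that level lies above background is not known.

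Compared with LC-RD, LC-HFD lungs had less RNA for 5 of the 10 matrix genes and more for 2, and the levels of Ogn and Abi3bp were lower by more than 2-fold. By limma with Benjamini-Hochberg adjustment over all 45037 probe sets, passing at an adjusted p under 0.05, 8 of the 25 probe sets fell in LC-HFD and 2 rose, and the remaining 15 did not pass. Over the whole array 25.0% of probe sets passed, 13.6% lower and 11.3% higher. Taking 1 lead per gene, Ogn, Abi3bp, Lum, Aspn and Dcn were lower, Prelp and Fmod were higher, and Mfap5, Bgn and Fbln1 did not pass. Among all 18193 leads 27.3% passed, 16.2% lower and 11.1% higher. The median log2 difference, LC-HFD minus LC-RD, was −0.24 over the 10 leads and 0.02 over all leads.

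A fall of more than 2-fold was measured for 4 probe sets, both of Ogn and both of Abi3bp, and no probe set of the 10 genes rose by more than 2-fold. On the whole array 1.06% of probe sets passed and were lower by more than 2-fold, and of all leads 1.07%. The 3 LC-HFD arrays and the 3 LC-RD arrays did not overlap for 17 of the 25 probe sets, 13 lower and 4 higher, where 43.8% of all probe sets did not overlap, 21.8% lower and 22.0% higher. For all 10 leads the groups lay apart, 8 lower and 2 higher, against 49.1% of all leads, 26.8% lower and 22.3% higher. The genes were chosen with earlier results of these arrays known, so these counts describe them and are not evidence about fibroblast matrix genes as a class.

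**Figure D1:**
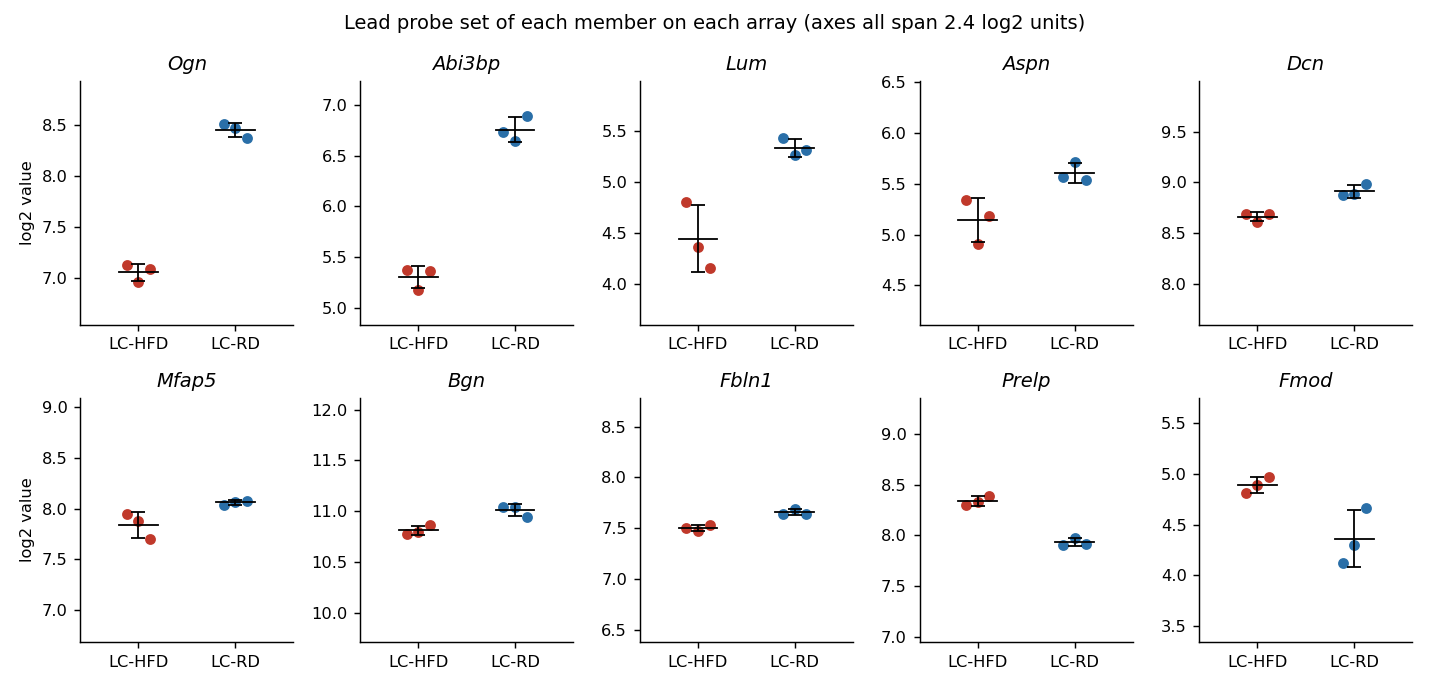
Log2 value of the lead probe set of each of the 10 genes on each array, with LC-HFD in red at the left and LC-RD in blue at the right. Points are arrays, the line is the mean of 3 and the bar its SD, and every panel spans 2.4 log2 units, so the wide gaps of Ogn and Abi3bp and the narrow ones of Bgn and Fbln1 can be compared by eye.

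Ogn encodes osteoglycin, also called mimecan, a small proteoglycan of connective tissue and vessel walls. Its lead probe set read 7.12, 6.96 and 7.09 on the LC-HFD arrays and 8.51, 8.47 and 8.38 on the LC-RD arrays (log2 values). The groups were separated by more than 1 log2 unit and each was tight, with an SD of 0.0838 in LC-HFD and 0.0695 in LC-RD. The difference was −1.40 (SE 0.0805, 95% interval −1.59 to −1.21), which is 2.64-fold lower, with an adjusted p of 0.000182. The other Ogn probe set read 6.45, 6.39 and 6.40 in LC-HFD and 7.80, 7.85 and 7.88 in LC-RD. It gave −1.43 (adjusted p = 9.09e-05), so both probe sets of the gene fell by nearly the same amount.

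Abi3bp encodes a secreted matrix protein that was first found through its binding to the SH3 domain of Abi3. Its lead read 5.38, 5.18 and 5.36 in LC-HFD and 6.73, 6.65 and 6.89 in LC-RD, with no overlap. The difference was −1.45 (SE 0.0969), 2.73-fold lower, with an adjusted p of 0.000276. The dimmer probe set read 4.46, 3.79 and 4.72 in LC-HFD and 5.40, 5.78 and 5.59 in LC-RD. It too was lower (difference −1.27, adjusted p = 0.00878), with a wider spread among the LC-HFD mice (SD 0.483) than among the LC-RD mice (SD 0.190). Ogn and Abi3bp were the genes of the set that passed under each of the 17 other settings run.

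Decorin, biglycan and asporin form the class of small proteoglycans with the closest sequence likeness. Dcn encodes decorin, which coats collagen fibrils and is known to bind TGF-β and the EGF receptor. Its lead read 8.69, 8.61 and 8.69 in LC-HFD and 8.87, 8.88 and 8.99 in LC-RD. The groups did not overlap, yet the difference was small, −0.25 (SE 0.0738, 95% interval −0.43 to −0.08), or 1.19-fold lower. The adjusted p of 0.0447 was close to the threshold, and with any of the 6 arrays left out it lay between 0.0601 and 0.116. A second Dcn probe set, at 3.36, 3.46 and 3.03 in LC-HFD and 3.12, 3.53 and 3.46 in LC-RD, overlapped between the groups (difference −0.09, adjusted p = 0.693).

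Bgn encodes biglycan, which also activates Toll-like receptors when it is released from matrix. Its lead read 10.78, 10.80 and 10.86 in LC-HFD and 11.04, 11.04 and 10.94 in LC-RD. The groups did not overlap, but the difference of −0.20 (95% interval −0.37 to −0.03) did not pass after adjustment (adjusted p = 0.0897). The other Bgn probe sets differed by −0.18 (adjusted p = 0.0885) and −0.06 (adjusted p = 0.553).

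Aspn encodes asporin, which lacks the glycan attachment site of its relatives and binds collagen and TGF-β1. Its lead read 5.34, 4.91 and 5.19 in LC-HFD and 5.57, 5.72 and 5.53 in LC-RD, differing by −0.46 (SE 0.121, adjusted p = 0.0309). The groups did not overlap, and LC-HFD replicate 2 was the lowest array. The call held with LC-HFD replicate 1 left out (adjusted p = 0.0190) and was lost without LC-HFD replicate 2, LC-HFD replicate 3 or any of the LC-RD arrays, with an adjusted p of up to 0.111. The second Aspn probe set read 5.29, 4.93 and 5.26 in LC-HFD and 5.32, 5.38 and 5.65 in LC-RD, and its difference of −0.29 did not pass (adjusted p = 0.144).

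Lumican, fibromodulin and PRELP form the next class, whose members carry or can carry keratan sulfate. They did not move together. Lum, whose product is needed for the clear cornea and binds collagen beside fibromodulin, was read by 1 probe set, at 4.81, 4.36 and 4.16 in LC-HFD and 5.43, 5.26 and 5.31 in LC-RD. The highest LC-HFD array lay below the lowest LC-RD array, and the LC-HFD mice varied more (SD 0.333) than the LC-RD mice (SD 0.0875). The difference was −0.89 (SE 0.162, 95% interval −1.27 to −0.51), 1.86-fold lower, with an adjusted p of 0.00841. It passed with each array left out in turn and did not pass by the methods' t-test after adjustment (adjusted p = 0.0565).

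Prelp encodes a proline- and arginine-rich member that binds heparan sulfate and collagen and is thought to anchor basement membranes to the matrix beneath. Its lead read 8.30, 8.33 and 8.39 in LC-HFD and 7.91, 7.98 and 7.91 in LC-RD, all LC-HFD arrays above all LC-RD arrays. It was higher by 0.41 (SE 0.0707, 95% interval 0.24 to 0.57), 1.33-fold, with an adjusted p of 0.00738. The dimmer Prelp probe set read 5.71, 5.77 and 5.72 in LC-HFD and 5.65, 5.61 and 5.57 in LC-RD. Its arrays also lay apart in the same direction, but the difference of 0.12 did not pass (adjusted p = 0.229).

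Fmod encodes fibromodulin, which guides collagen fibril assembly and is abundant in tendon. Its lead read 4.81, 4.89 and 4.97 in LC-HFD and 4.12, 4.30 and 4.67 in LC-RD, differing by 0.53 (SE 0.141, adjusted p = 0.0331). With an SD of 0.0820 in LC-HFD against 0.279 in LC-RD, the LC-RD mice were the more variable, and LC-RD replicate 3 came closest to the LC-HFD arrays. The call held without LC-RD replicate 3 (adjusted p = 0.0118) and, by the narrowest margin, without LC-HFD replicate 1. It was lost without LC-HFD replicate 2, LC-HFD replicate 3, LC-RD replicate 1 or LC-RD replicate 2, with an adjusted p of up to 0.109. The 5 other Fmod probe sets, of a type that can also bind related transcripts, differed by 0.19 to 0.52 and none passed, and all 6 lay near or below the array median. The Bgn probe set that differed by −0.06 is of this type as well. The leads of Prelp and Abi3bp and the second Aspn probe set are of a type whose probes can match several transcripts.

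Fbln1 and Mfap5 belong to the elastic fiber and microfibril scaffold. Mfap5, a microfibril protein that binds fibrillin, had a lead at 7.94, 7.88 and 7.70 in LC-HFD and 8.04, 8.07 and 8.08 in LC-RD. The groups did not overlap and the difference of −0.22 did not pass (95% interval −0.42 to −0.02, adjusted p = 0.101). The second Mfap5 probe set read 7.17, 7.04 and 7.12 in LC-HFD and 7.38, 7.47 and 7.44 in LC-RD, and this one was lower (difference −0.32, adjusted p = 0.0204). The 2 probe sets thus had the same direction on different sides of the threshold.

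Fbln1 encodes fibulin-1, a calcium-binding glycoprotein of elastic fibers and basement membranes. Its lead read 7.50, 7.47 and 7.53 in LC-HFD and 7.63, 7.69 and 7.64 in LC-RD, differing by −0.15 (95% interval −0.31 to 0.01, adjusted p = 0.140). The other probe sets of Fbln1 gave 0.05 (adjusted p = 0.738) and −0.16 (adjusted p = 0.251), and both overlapped between the groups. No direction held over all 3 probe sets of the gene.

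**Figure D2:**
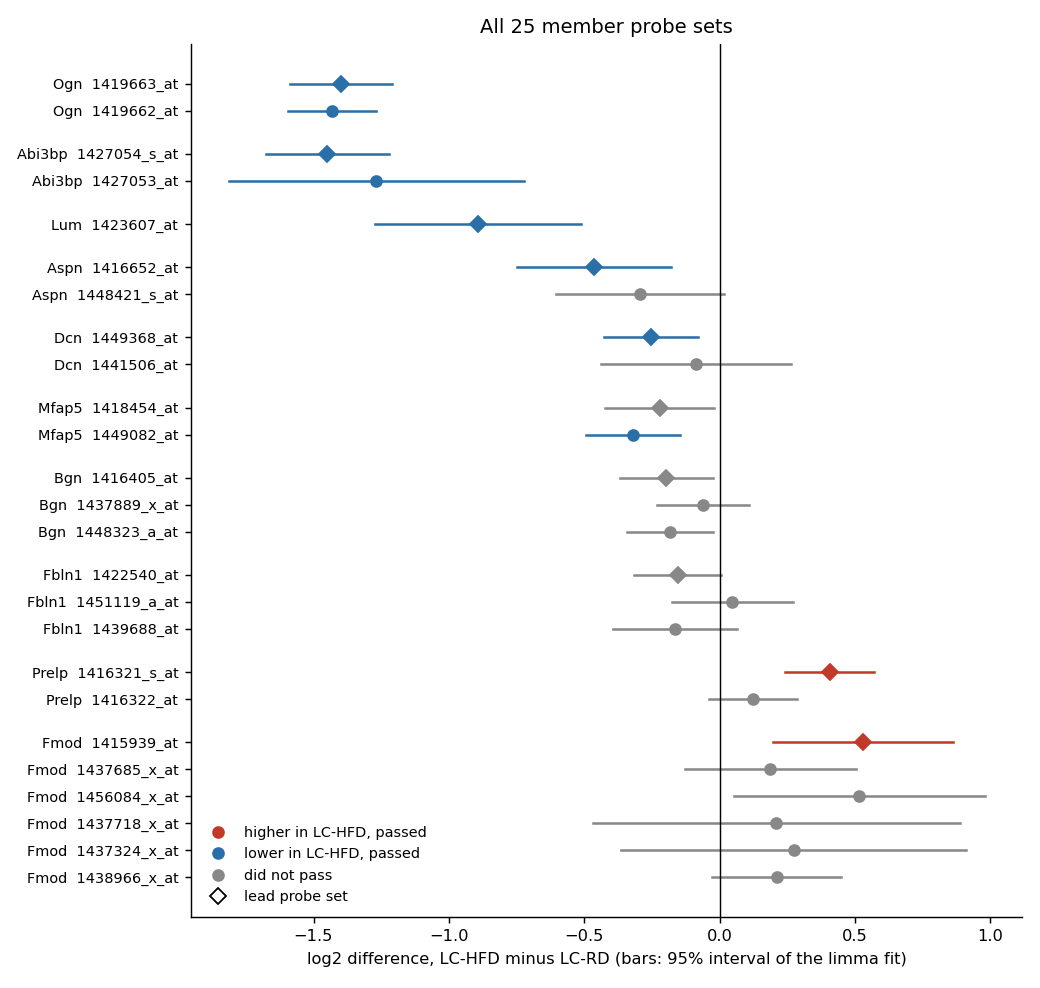
Log2 difference, LC-HFD minus LC-RD, of all 25 probe sets with the 95% interval of the limma fit, grouped by gene, with diamonds for leads. Red marks the 2 probe sets that passed higher in LC-HFD, blue the 8 that passed lower and gray the 15 that did not pass, and both probe sets of Ogn and of Abi3bp lie left of −1.

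The LC-HFD mice differed from one another more than the LC-RD mice for 6 of the 10 leads. LC-HFD replicate 2 gave the lowest LC-HFD value for 5 leads and the highest for 0. Over the 10 leads the mean log2 value was 6.94 to 7.07 on the LC-HFD arrays and 7.39 to 7.43 on the LC-RD arrays, which did not overlap. This mean mixes 8 leads of negative difference with 2 of positive difference and has no test.

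Several of these genes lie beside other family members in the genome, in the gene order of GRCm38.p6. On chromosome 13, Ecm2, Aspn, Omd and Ogn follow one another with 0 other coding genes wholly between the first and the last, and all 4 were lower in LC-HFD. A coding gene that reaches past either end of such a stretch was not counted. Omd, which encodes the bone proteoglycan osteomodulin, averaged 3.46 ± 0.269 in LC-HFD and 4.12 ± 0.102 in LC-RD (SD, n = 3 each), differing by −0.66 (limma, adjusted p = 0.0148). The lead of Ecm2, a leucine-rich matrix protein, averaged 2.52 ± 0.141 in LC-HFD and 3.40 ± 0.134 in LC-RD, differing by −0.88 (limma, adjusted p = 0.00200), and its second probe set differed by 0.09. Both Omd and Ecm2 lay below the array median, so these are differences between dim signals.

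On chromosome 10, Dcn and Lum, both lower, are followed by Kera and Epyc, which encode the corneal keratocan and the cartilage epiphycan. Kera differed by 0.38 (adjusted p = 0.0818) and Epyc by 0.25 (adjusted p = 0.149), so neither passed. Kera averaged 2.18 in LC-HFD against 1.79 in LC-RD, while Epyc averaged 2.31 in LC-HFD against 2.06 in LC-RD, all below the array median. On chromosome 1, Prelp and Fmod, both higher, stand beside Optc, the gene of the eye proteoglycan opticin, which differed by 0.11 (adjusted p = 0.678). On chromosome 13 all 4 neighbors had the same direction, while on chromosomes 10 and 1 the calls were those of the pairs of genes already described. Whether neighbors move together more than other genes was not tested.

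**Figure D3:**
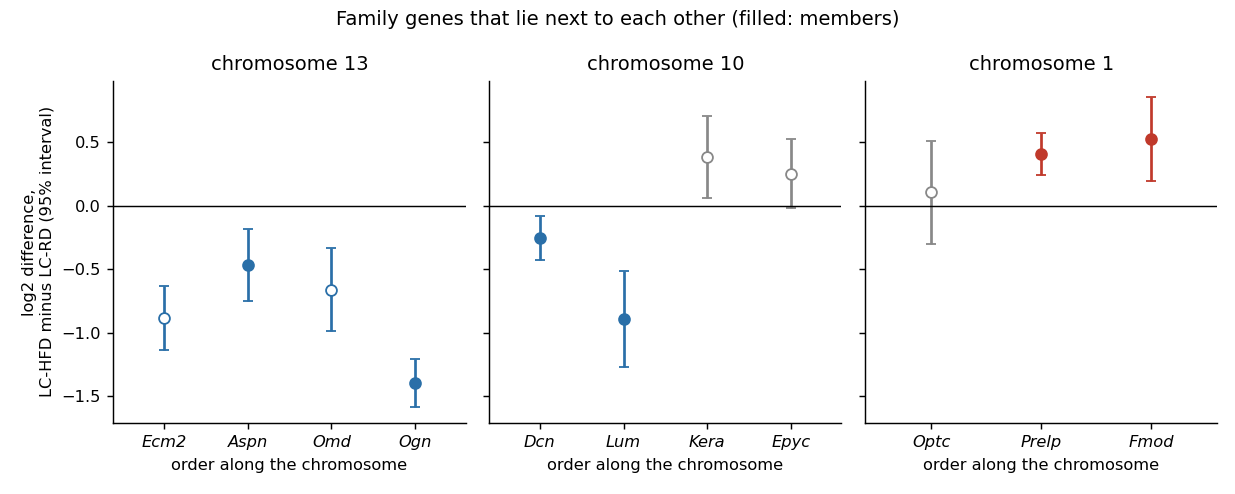
Log2 difference, LC-HFD minus LC-RD, of the leads of small leucine-rich proteoglycan family genes in their order along chromosomes 13, 10 and 1, with 95% intervals of the limma fit. Filled points are genes of the set and open points other family genes; blue passed lower, red passed higher and gray did not pass, and all 4 genes on chromosome 13 are blue.

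Of 11 other family genes 9 were measured, and Ecm2 and Omd fell, 0 rose (limma; 2 at an unadjusted p under 0.05 and 0 by the methods' t-test after adjustment) and 7 did not pass, with a median of 0.11. The enzymes that build and modify the sugar chains were mixed, 3 higher and 2 lower of 27, with a median of −0.02. Dsel, related to the epimerase that forms dermatan sulfate, read 6.07, 5.96 and 6.10 in LC-HFD and 7.02, 6.98 and 6.81 in LC-RD, differing by −0.89 (adjusted p = 0.000961). B3gnt7, which extends keratan sulfate, was higher by 0.81 (adjusted p = 0.0320), and the chondroitin sulfotransferase gene Chst12 by 0.48 (adjusted p = 0.00764). The lead of Csgalnact1, which starts chondroitin chains, was lower (difference −0.48, adjusted p = 0.0330), while its other probe set differed by 0.32.

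Genes of microfibrils and elastic fibers moved in both directions, 5 higher and 3 lower of 22, with a median of 0.04. The highest rise in this list was that of Fbn2, encoding fibrillin-2, a microfibril protein made mainly during development. It read 6.18, 5.70 and 5.99 in LC-HFD and 3.94, 3.88 and 3.68 in LC-RD, with no overlap and a difference of 2.13 (adjusted p = 0.000231), and its second probe set rose by 2.16. The hemicentin gene Hmcn1 (difference −0.73, adjusted p = 0.00108), the fibulin-3 gene Efemp1 (−0.68, adjusted p = 0.00700) and the lead of the latent TGF-β binding protein gene Ltbp1 (−0.50, adjusted p = 0.00458) were lower.

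Among fibrillar collagens and their partners 3 of 25 were higher and 3 lower, with a median of 0.12. Col14a1, a fibril-associated collagen that binds decorin, was lower on its lead (difference −0.92, adjusted p = 0.00335) and differed by −0.07 on another of its 3 probe sets. Col6a3 was lower (difference −0.55, adjusted p = 0.00259) and Pcolce2, an enhancer of procollagen cleavage, likewise (−0.39, adjusted p = 0.0100). Col1a1, the main chain of type I collagen, was higher, by 0.48 on its lead (adjusted p = 0.00605) and by 1.94 on its other probe set.

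Of 19 proteases and inhibitors that act on proteoglycans 4 were higher and 2 lower, with a median of 0.21. Mmp12, the macrophage elastase, averaged 8.21 ± 0.0871 in LC-HFD and 7.02 ± 0.0408 in LC-RD (SD, n = 3 each), higher by 1.19 (limma, adjusted p = 0.000256), and Mmp14 rose by 0.49 (adjusted p = 0.00428). The aggrecanase-family gene Adamts8 was lower (difference −0.81, adjusted p = 0.00584), and Adamts15 likewise (−0.74, adjusted p = 0.00292).

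Of 27 receptors and ligands that bind these matrix proteins, 7 were higher and 3 lower, with a median of 0.04. Tgfb1, a growth factor that decorin and biglycan bind, read 8.67, 8.68 and 8.78 in LC-HFD and 6.83, 6.76 and 6.76 in LC-RD on its lead, higher by 1.93 (adjusted p = 4.05e-05), but its other probe set differed by 0.15. The lead of Tgfb2 was higher by 0.59 (adjusted p = 0.00383), and its 4 probe sets ranged from 0.06 to 0.59, 1 of them passing. Pdgfb was higher by 0.51 (adjusted p = 0.00287). The lead of Egfr was higher by 0.71 (adjusted p = 0.00481), and its 7 probe sets ranged from −0.65 to 0.71, 3 of them passing higher. Those probe sets were designed on the mouse gene, and how far they read the human transgene was not tested.

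Markers of other cells were read beside the matrix genes. Of 20 fibroblast markers 9 fell, 1 rose and 10 did not pass, with a median of −0.24, and their mean was 7.02 to 7.03 on LC-HFD arrays and 7.22 to 7.34 on LC-RD arrays. Itga8, a fibroblast integrin, read 8.05, 7.96 and 7.81 in LC-HFD and 8.80, 8.84 and 8.79 in LC-RD, differing by −0.87 (adjusted p = 0.000973). Meox2, a mesenchymal transcription factor, was lower (difference −0.89, adjusted p = 0.000579) and Inmt, a methyltransferase gene high in lung fibroblasts, likewise (−0.57, adjusted p = 0.00229). Npnt, among the brightest of the list, differed by −0.21 on its lead (adjusted p = 0.112) and by up to 2.05 on others of its 5 probe sets, and Cd34 was higher by 0.29 (adjusted p = 0.0317).

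Mesothelial markers were lower too, 7 of 9 with 1 higher and a median of −0.58, and their mean was 6.10 to 6.24 on LC-HFD arrays and 6.58 to 6.67 on LC-RD arrays. Gpm6a (difference −0.80, adjusted p = 0.00172), Rspo1 (−0.75, adjusted p = 0.0373) and Upk1b (−0.72, adjusted p = 0.00366) were lower, while Krt19, which epithelium also uses, was higher by 0.42 (adjusted p = 0.00591). On their leads, heart muscle markers were lower for 4 of 12, with 0 higher by limma, by the methods' t-test after adjustment or at an unadjusted p under 0.05. They had a median of −0.42 and a mean of 4.11 to 4.30 on LC-HFD arrays and 4.53 to 4.55 on LC-RD arrays, all below the array median. Of their dimmer probe sets, 1 of Myl4 passed higher by 0.41 and 1 of Tnnt2 passed lower (difference −0.75). Myl7, an atrial myosin light chain (difference −1.36, adjusted p = 0.000537), and the cardiac actin gene Actc1 (−0.67, adjusted p = 0.00782) were lower. These lists moved in the direction of Ogn, Abi3bp and Lum, and their part in those differences was not tested.

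Cartilage and tendon markers, tissues rich in fibromodulin and asporin, passed for 0 of 17 by limma and by the methods' t-test after adjustment, and 4 were higher and 0 lower at an unadjusted p under 0.05. They had a median of 0.26 and a mean of 3.54 to 3.73 on LC-HFD arrays and 3.42 to 3.50 on LC-RD arrays, all below the array median. Of 14 smooth muscle and pericyte markers 3 were higher and 1 was lower. Rgs5, a pericyte gene, read 9.39, 9.29 and 9.36 in LC-HFD and 7.24, 7.13 and 7.14 in LC-RD, higher by 2.17 (adjusted p = 3.59e-05). All 4 of its probe sets passed in this direction, whereas Kcnj8, also of pericytes, was lower (difference −0.82, adjusted p = 0.00452). Lung epithelial markers had 2 higher and 2 lower of 13 and a median of 0.00, with means that overlapped between the groups. That median is the difference of the Sftpc lead, which hardly varied between arrays (SD 0.000473 in LC-HFD and 0.000924 in LC-RD). The dimmer Sftpc probe set passed higher by 1.45, and whether the lead could show a change was not tested. Endothelial markers had 3 higher and 3 lower of 9, leukocyte markers 2 and 2 of 9, adipocyte markers 2 higher and 1 lower of 8, and skeletal muscle markers 1 higher of 10.

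**Figure D4:**
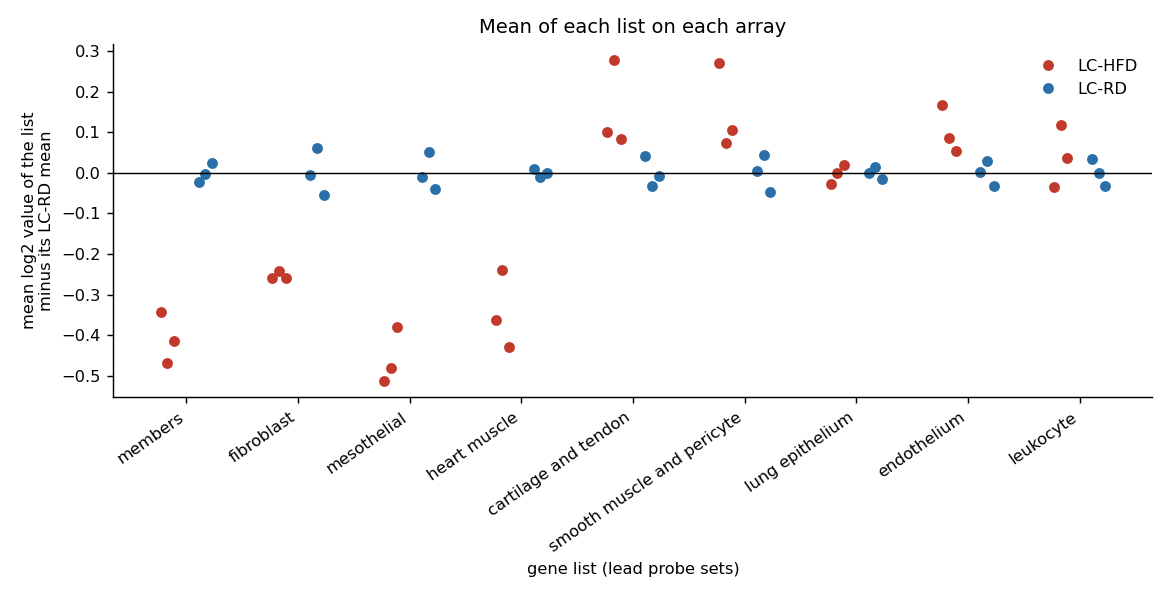
Mean log2 value of the 10 matrix genes and of 8 marker lists on each array, drawn as the difference from the LC-RD mean of the same list, with LC-HFD in red left of LC-RD in blue. The matrix genes, fibroblast, mesothelial and heart muscle lists lie below the LC-RD arrays on all 3 LC-HFD arrays, and the lung epithelium list overlaps between the groups.

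How far the calls of single genes hold was read from the plot of calls by setting. With the 3′ minus 5′ signal in the limma model, Ogn (adjusted p = 0.00594) and Abi3bp (adjusted p = 0.00760) were the leads that passed. Lum (adjusted p = 0.0767) and Prelp (adjusted p = 0.0592) then kept their direction without passing.

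**Figure D5:**
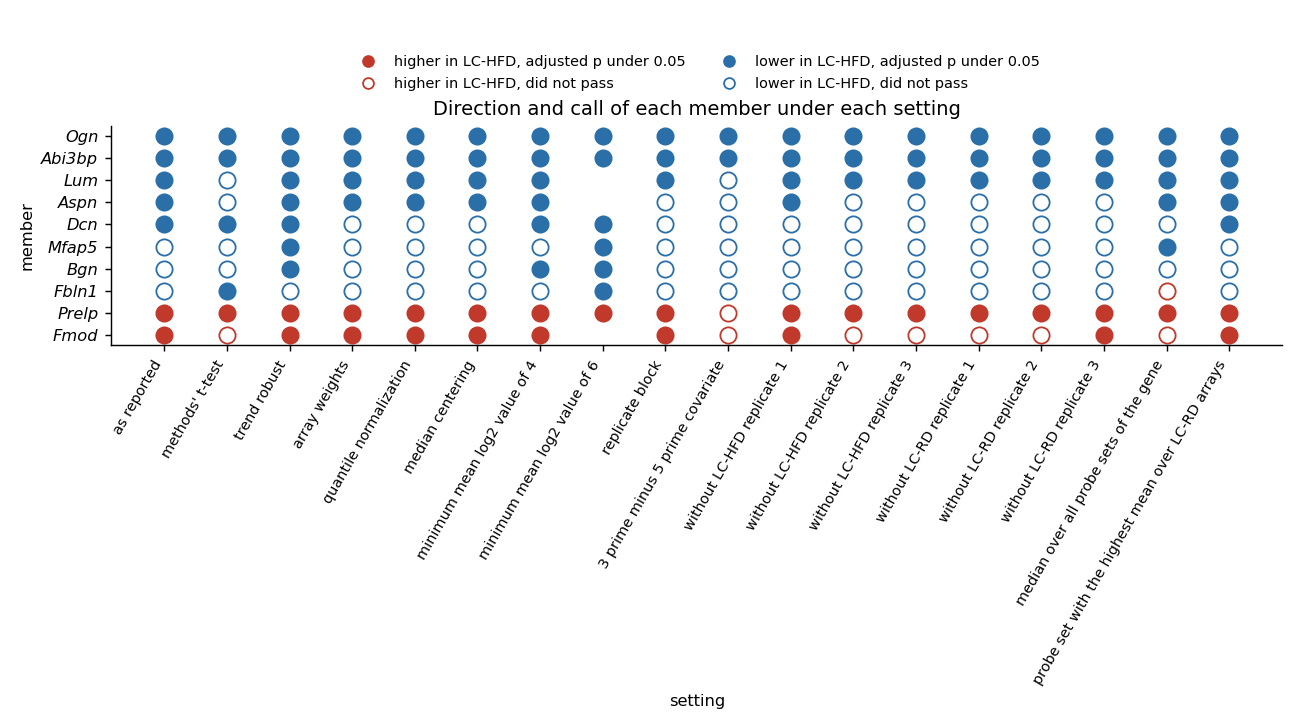
Direction and call of the lead of each gene as reported and under each other setting run, with filled circles for an adjusted p under 0.05, open circles for no call, blue for lower in LC-HFD and red for higher, and no circle where the gene was not tested. Ogn and Abi3bp are filled throughout, and Dcn, Aspn and Fmod are open under several settings.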

How the data were processed

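Each of 6 mouse lungs, 3 LC-HFD and 3 LC-RD, was hybridized to 1 Affymetrix array. The authors deposited 1 table of log2 values for 45101 probe sets and 6 arrays, without pooling. The submitters' processing notes name GCRMA, a method that models background by probe sequence and quantile-normalizes the arrays, and the study's methods name Partek software. Their versions were not given in the sources used here. GCRMA assumes a like distribution on every array, so a shift of the whole transcriptome would not be seen. How far it alters differences between dim probe sets was not tested. The labels name the groups by diet with doxycycline, which are called LC-HFD and LC-RD here.

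The deposited values were taken as they stand. After 64 control probe sets had been set aside, 45037 were compared with limma 3.58.1 (lmFit and eBayes, default settings, two-sided) in R 4.3.3, with Benjamini-Hochberg adjustment over all of them. A probe set passed at an adjusted p under 0.05, and a fold threshold of 2 was a further rule. Errors are SDs between mice or SEs of the fit, and precision is limited by having 3 arrays per group. Control probe sets were compared with a two-sided exact permutation test. Of the tested probe sets, 34945 belong to 1 gene in the platform annotation, 932 to several and 9160 to none, and a gene was named only from the first kind. Symbols were updated through the Entrez ID for 34741 probe sets. Probe sets of 1 gene share RNA and are not replicates.

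The genes and all lists were chosen with earlier results of these data known, and no list has a set test. Named genes are the 10 genes, up to 4 of each companion list with the largest change among those that passed, family genes beside them on the chromosome, Egfr, and of each marker list up to 4 of the brightest and 3 with the largest change among those that passed. Xylt1, Fbn1, Efemp2, Mfap1a, Loxl2, Adamts2, Adamts14, Fkbp10, Wisp1, Podnl1, Tsku, Plin1, Cfd, Adrb3 and Lamp3 were listed and not analysed here. Col14a1, Loxl1, Ltbp4, Chad and Kdr stand in more than 1 list. Promoters come from RefSeq and were searched for 4 motifs on both strands.

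The alternatives tried changed the test (the methods' t-test, adjusted in the same way), the variance model (robust, with a trend on intensity), the weighting of arrays, the normalization (quantile, or centering on the median), the minimum mean log2 value (4 or 6), the model terms (a replicate block, or RNA integrity as the 3′ minus 5′ signal), the arrays included (each left out once) and the choice of probe set. The fit was tested on simulated data with known changes before use. Promoters were searched and figures made in Python 3.11.15 (pandas 2.3.3, numpy 2.4.6, matplotlib 3.10.9).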

Additional observations from a re-analysis of the deposited data

How the results depend on the processing

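Ogn and Abi3bp kept their direction and their call under all 17 other settings, with differences of −1.44 to −1.33 and −1.50 to −1.34. Other genes were less stable. With the RNA integrity signal (3′ minus 5′) entered as a covariate, 4 probe sets of the 10 genes passed lower in place of 8, 0 passed higher in place of 2, 2 leads passed lower in place of 5 and 0 passed higher in place of 2, while 3558 of all probe sets passed in place of 11250. By the methods' t-test and at a minimum mean log2 value of 6, at which Lum, Aspn and Fmod were not tested, 1 probe set and 1 lead passed higher. Of all probe sets 7950 passed by that t-test, in place of 11250. Prelp was lost with the covariate (adjusted p = 0.0592), and Lum with the covariate (0.0767) and by the t-test (0.0565). Aspn (0.0995) and Fmod (0.115) were also lost by the t-test, while Fbln1 passed by it (0.0328). Dcn was also lost with array weights (0.0521), quantile normalization (0.0550) and median centering (0.0732), and Fmod with the median over all its probe sets (0.339). With the median over its probe sets, Fbln1 reversed in sign to a log2 difference of 0.0473 and did not pass (adjusted p = 0.712). Bgn passed under 3 settings, Mfap5 under 3 and Fbln1 under 2. The cause of these changes was not tested.

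With each array left out in turn, 5 to 7 probe sets and 3 to 4 leads passed lower, 1 to 3 probe sets and 1 to 2 leads passed higher, 3 to 5 probe sets passed with a fall over 2-fold, and 5792 to 11531 of all probe sets passed. The 9 fibroblast markers that passed lower became 5 to 10 over all settings, the 7 mesothelial markers 2 to 7 and the 4 heart muscle markers 1 to 4.

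The replicate numbers do not pair the mice. Deviations from the group means correlated at −0.0431, −0.0930 and −0.0303 between arrays of the same number, and no LC-HFD array correlated best with its own number. With the replicate number as a block, 5 probe sets and 3 leads passed lower, Dcn (adjusted p = 0.1003) and Aspn (0.0684) losing the call, and 2 leads passed higher.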
